A study of Homo sapiens with 9 samples.

Results

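The integrated stress response and the unfolded protein response were examined through 43 genes in xenografts of PC3, a human prostate cancer line. The genes were chosen by name from the known pathways, with earlier results of these data known. All 43 were found in both count tables, among the 16008 genes that the tables share. They comprise 7 transcription regulators, 9 genes of amino acid supply and one-carbon metabolism, 5 cytosolic tRNA synthetases, 5 feedback regulators and other ATF4 targets, 3 endoplasmic reticulum (ER) sensors or their effectors, 11 ER chaperones and folding factors and 3 genes of ER-associated degradation. The first 4 groups, with 26 genes, are called the ATF4 arm below, and the other 3 groups, with 17 genes, the ER arm.

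Bulk mRNA was sequenced from 9 xenografts grown under the skin of the flank of male NSG mice, which lack mature lymphocytes and natural killer cells. Per the series record, mice of 11 weeks received PC3 cells in Matrigel and, once tumors reached 90 mm3, PBS as vehicle, trastuzumab deruxtecan (T-DXd) at 5 mg/kg or patritumab deruxtecan (P-DXd) at 5 mg/kg, once a week for 5 cycles. The study's methods differ for the 5 mg/kg experiment whose tumors were sequenced, with younger mice, a larger starting volume and fewer cycles. They give the record's age, volume and cycles for a separate experiment, which tested T-DXd at a higher dose without P-DXd. T-DXd binds HER2 and P-DXd binds HER3, and both carry the same topoisomerase I inhibitor. There were 3 libraries per group, each from a separate animal by its code, so p-values measure the spread between these animals. The titles and the treatment fields of the 6 treated libraries name opposite conjugates. The names P-DXd-titled and T-DXd-titled therefore follow the titles alone, and the 6 treated libraries were also compared jointly with PBS.

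Total counts were 54481702 to 125538975 per library, and each of the 3 PBS libraries was deeper than each treated library. The 43 genes took 1.13% to 1.24% of all counts. PBS replicate 1 stood apart from the other PBS libraries, with a chi-square of 316 and 388 per gene against them, compared with 37.5 between those 2. P-DXd-titled replicate 2 stood apart in its group, at 126 and 106 compared with 39.8 between the others. Between the T-DXd-titled libraries the chi-square was 17.2 to 27.8. It rises with depth, so it is not compared between groups. The epithelial identity of PC3 was checked with 5 markers, whose summed level in CPM (counts scaled by library size) was 1668 to 2345 with PBS and 3127 to 3664 in the treated libraries, without overlap. The 16 proliferation markers were all lower in the treated xenografts, at a summed 500.3 to 655 CPM compared with 1767 to 3011 CPM with PBS. The sources used here do not say whether reads of mouse cells were removed. In bulk RNA, fewer cells of a type and less RNA per cell cannot be told apart.

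Several stresses, among them amino acid shortage and unfolded protein in the ER, lead to phosphorylation of the translation factor eIF2α. General translation then falls while translation of ATF4 mRNA rises, and ATF4 drives genes of amino acid synthesis, uptake and tRNA charging as well as DDIT3 and the feedback phosphatase subunit PPP1R15A. Unfolded protein in the ER also activates IRE1, encoded by ERN1, which splices XBP1 mRNA, and ATF6, which is cleaved to a transcription factor, and these raise ER chaperones and degradation factors. Gene counts measure the amount of mRNA, not translation, splicing or cleavage.

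The DNA elements of both arms were searched for in RefSeq promoters (build GRCh38.p14) that run from 250 bases before to 50 bases after the start of a gene, on both strands. PSPH, SHMT2, ALDH1L2 and NUPR1 had no entry, and 39 genes were matched. The C/EBP-ATF response element (CARE, here TGATG, 1 base of any kind and AA) was in 7 of the 39 promoters and in 3.62% of all 35116 promoters. The ER stress element (ERSE, CCAAT, 9 bases of any kind and CCACG) was in 6 of 39 compared with 0.077% of all promoters. ERSE-II (ATTGG, 1 base and CCACG) was in 2 of 39 compared with 0.054%, and the element TGACGTG was in 0 of 39 compared with 1.97%. ERSE and ERSE-II share the letters CCACG. The sequences below place genes of either arm by promoter. They are a selection, made by no stated rule, of the matches that end before the start of the gene. Matches in SLC3A2 and MARS reach the start of the gene or lie after it and are not shown. Those in CRELD2 and SDF2L1 end before the start and are not shown either. The CARE match of HERPUD1 and the other ERSE match of HSP90B1 are also not shown. Each runs 5′ to 3′ on the strand of its gene with the match in capitals, which is reverse-complemented where the element lies on the other strand. A match is a description of these letters and not evidence of binding.

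The 4 ATF4 arm windows hold a CARE match. They lie at chr1:212565202-212565237 (plus strand, ATF3), chr7:97872455-97872490 (minus strand, ASNS), chr16:70289672-70289707 (minus strand, AARS) and chr15:40953248-40953283 (plus strand, CHAC1).
ATF3: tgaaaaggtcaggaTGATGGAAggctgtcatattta
ASNS: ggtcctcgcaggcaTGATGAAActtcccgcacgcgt
AARS: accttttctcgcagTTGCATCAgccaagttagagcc
CHAC1: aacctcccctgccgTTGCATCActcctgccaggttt

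The ER arm windows hold an ERSE match, apart from HERPUD1, which is shown with its ERSE-II match and has a CARE match too. They lie at chr22:28800589-28800635 (minus strand, XBP1), chr9:125241377-125241423 (minus strand, HSPA5), chr12:103930202-103930248 (plus strand, the first of the pair in HSP90B1), chr19:12938370-12938416 (plus strand, CALR), chr5:179698764-179698810 (plus strand, CANX) and chr16:56932011-56932049 (plus strand, HERPUD1).
XBP1: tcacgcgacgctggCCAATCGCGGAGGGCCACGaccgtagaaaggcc
HSPA5: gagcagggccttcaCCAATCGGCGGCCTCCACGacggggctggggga
HSP90B1: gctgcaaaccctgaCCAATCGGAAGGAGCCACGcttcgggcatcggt
CALR: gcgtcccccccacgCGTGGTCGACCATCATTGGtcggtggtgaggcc
CANX: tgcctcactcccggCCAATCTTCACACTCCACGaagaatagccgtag
HERPUD1: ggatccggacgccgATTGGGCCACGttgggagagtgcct

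Across the treated xenografts, mRNA of 4 of 7 stress regulators, 2 of 9 amino acid genes, 3 of 5 feedback regulators and other targets, XBP1 and DNAJB9 rose compared with PBS, and SLC7A5 of the amino acid genes fell. A gene was called at an adjusted p of 0.05 or less by edgeR's quasi-likelihood test and a change of at least 1.5-fold. In all 6 treated libraries compared with PBS, 11 of the 43 genes were called higher and 1 lower, where 15.2% of all 15070 genes tested were called higher and 17.1% lower. In P-DXd-titled xenografts 12 were higher and 1 lower, where 11.2% of all genes were higher and 13.8% lower. In T-DXd-titled xenografts 11 were higher and 1 lower, where the shares of all genes were 13.1% and 15.5%. These comparisons share the 3 PBS libraries. With P-DXd-titled replicate 3 left out, the count called higher in that group was 6. In the other treated group it was 7 with T-DXd-titled replicate 1 left out. These counts come from fits with a library fewer and are given without the share of all genes called in the same fit. The 1 gene called lower, SLC7A5, was not called in all treated xenografts without PBS replicate 1, in P-DXd-titled xenografts without PBS replicate 1 or 2 or any of the treated libraries, or in T-DXd-titled xenografts without treated replicate 2 or 3. Levels of the 6 treated and the 3 PBS libraries did not overlap for 27 of the 43 genes, 20 above and 7 below PBS, compared with 50.5% of all genes.

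**Figure D1:**
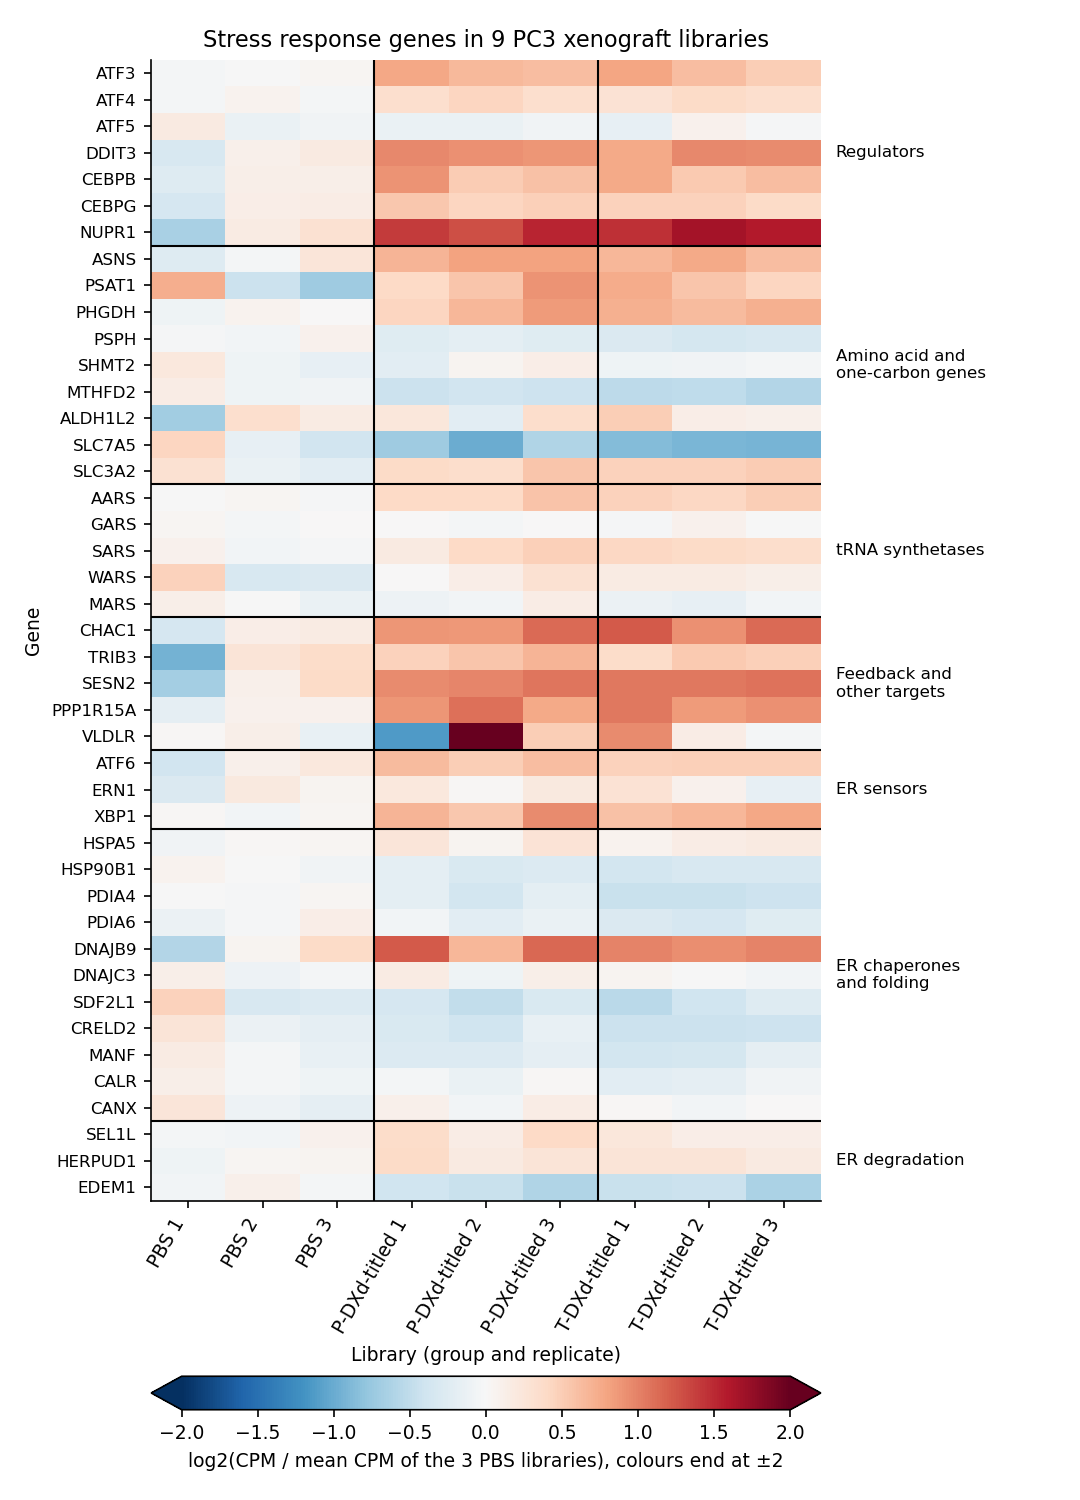
Level of each of the 43 genes (rows, by role) in each of the 9 libraries (columns), as log2 of CPM over the mean CPM of the 3 PBS libraries, with colours ending at ±2. NUPR1, SESN2, CHAC1 and PPP1R15A are higher in each of the 6 treated libraries, most ER chaperones are pale, and VLDLR is dark in P-DXd-titled replicate 2 alone.

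The arms differed in their medians. The median log2 fold change in all treated xenografts was 0.46 over the 26 ATF4 arm genes, 0.03 over the 17 ER arm genes and -0.21 over the 11 chaperones, beside -0.01 over all genes tested. This order did not hold in the further lists of both pathways counted below. Their medians were 0.11 over 33 further ATF4 targets and 0.17 over 42 further unfolded protein response genes. Of the ATF4 arm, 9 were called higher and 1 lower, and of the ER arm 2 were called higher and 0 lower, beside the 15.2% and 17.1% of all genes. The ER arm's count called higher is near that share. By library, the ATF4 arm's median log2 level relative to the PBS mean was 0.39 to 0.53 in the 6 treated and -0.03 to 0.02 in the PBS libraries. The ER arm's was -0.08 to 0.13 in the treated and -0.03 to 0.04 in the PBS libraries, so these ranges overlapped.

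Among the regulators, 4 of 7 rose. NUPR1, a small stress-induced nuclear protein, was at 32.9, 57.3 and 63.7 CPM in the PBS libraries, 135, 125 and 148 CPM in the P-DXd-titled and 141, 163 and 154 CPM in the T-DXd-titled libraries. Its lowest treated library was above its highest PBS library, and its log2 fold change was 1.49 ± 0.19 (SE, adjusted p = 8.91e-05). DDIT3, the pro-apoptotic factor CHOP, was at 19.5, 26.1 and 27.7 CPM with PBS, 47.5, 46.0 and 45.0 CPM in P-DXd-titled and 41.2, 47.5 and 46.8 CPM in T-DXd-titled xenografts. The groups did not overlap, and its log2 fold change was 0.90 ± 0.11 (adjusted p = 7.56e-05). DDIT3 overlaps MARS in the tables' coordinates and the strand used in counting is not stated, so its counts are less certain.

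ATF3, an ATF4-induced repressor and activator, was at 67.4, 69.1 and 71.5 CPM with PBS, 119, 109 and 106 CPM in P-DXd-titled and 120, 107 and 97.6 CPM in T-DXd-titled xenografts. Its log2 fold change was 0.66 ± 0.08 (adjusted p = 6.43e-05) without overlap. CEBPB, a partner of ATF4 on CARE sites, was at 106, 138 and 138 CPM with PBS, 236, 180 and 190 CPM in P-DXd-titled and 215, 183 and 196 CPM in T-DXd-titled xenografts. It rose by a log2 fold change of 0.65 ± 0.11 (adjusted p = 0.000721), which was 0.55 and under the fold minimum without PBS replicate 1. ATF4 itself was at 248, 266 and 248 CPM with PBS, 321, 343 and 320 CPM in P-DXd-titled and 312, 331 and 321 CPM in T-DXd-titled xenografts. All treated libraries were above PBS, with a log2 fold change of 0.35 ± 0.06 (adjusted p = 0.000629) that did not reach the fold minimum. The same held for CEBPG, another dimer partner, at 0.46 ± 0.10 (adjusted p = 0.00318), and ATF5 was at -0.07 ± 0.09 (adjusted p = 0.496).

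**Figure D2:**
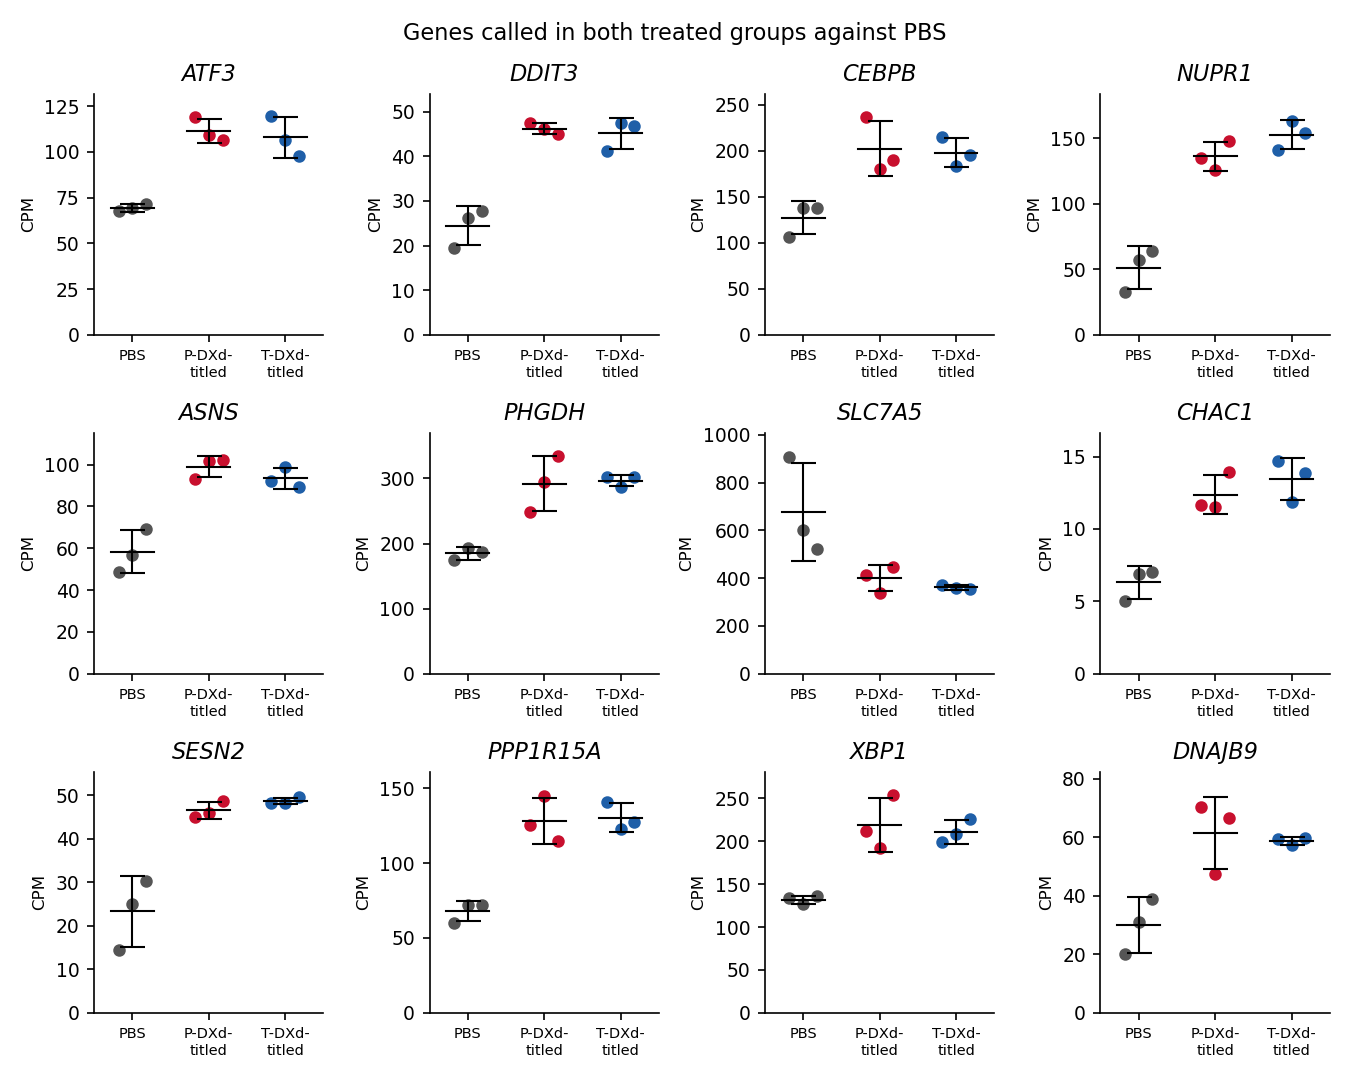
CPM of the 12 genes called in all treated xenografts compared with PBS, by group. Points are libraries, long bars the mean and capped bars the SD (n = 3); SLC7A5 is lower and the other 11 genes are higher in each treated library than in any PBS library.

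Of the 9 genes of amino acid supply, ASNS and PHGDH rose and SLC7A5 fell. ASNS, asparagine synthetase and a classic ATF4 target, was at 48.7, 57.0 and 69.4 CPM with PBS, 93.1, 102 and 102 CPM in P-DXd-titled and 92.2, 98.8 and 89.1 CPM in T-DXd-titled xenografts. Its log2 fold change was 0.72 ± 0.11 (adjusted p = 0.000241). PHGDH, the first enzyme of serine synthesis, was at 175, 194 and 187 CPM with PBS, 248, 294 and 334 CPM in P-DXd-titled and 302, 286 and 303 CPM in T-DXd-titled xenografts, with a log2 fold change of 0.67 ± 0.09 (adjusted p = 0.000147). Neither gene's groups overlapped.

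The steps of serine synthesis did not move alike. PSAT1, the second enzyme, was at 33.1, 14.9 and 12.2 CPM with PBS, 26.3, 29.4 and 37.5 CPM in P-DXd-titled and 33.6, 29.5 and 26.9 CPM in T-DXd-titled xenografts, so that PBS replicate 1 lay within the treated range. Its log2 fold change was 0.61 ± 0.27 (adjusted p = 0.0784) with all libraries and 1.18 (adjusted p = 2.49e-05) without PBS replicate 1, and 0.35 without PBS replicate 3. PSPH, the last enzyme, was below PBS in each treated library at a log2 fold change of -0.27 ± 0.06 (adjusted p = 0.00377). In mitochondrial one-carbon metabolism, MTHFD2 was at -0.47 ± 0.07 (adjusted p = 0.000395), also below PBS in each treated library and under the fold minimum. SHMT2 was at -0.03 ± 0.10 and ALDH1L2 at 0.20 ± 0.23, with adjusted p of 0.798 and 0.47.

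SLC7A5 and SLC3A2 encode the light and heavy chain of the amino acid transporter LAT1, and their mRNA levels lay on opposite sides of PBS. SLC7A5 was at 906, 603 and 520 CPM with PBS, 414, 339 and 446 CPM in P-DXd-titled and 373, 359 and 353 CPM in T-DXd-titled xenografts. It fell without overlap, at a log2 fold change of -0.83 ± 0.15 (adjusted p = 0.00108), which was -0.55 and under the fold minimum without PBS replicate 1. SLC3A2 was at 417, 307 and 291 CPM with PBS, 440, 430 and 499 CPM in P-DXd-titled and 463, 466 and 481 CPM in T-DXd-titled xenografts. It was above PBS in each treated library at 0.45 ± 0.11 (adjusted p = 0.00537), under the fold minimum, and reached 0.64 and was called without PBS replicate 1.

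**Figure D3:**
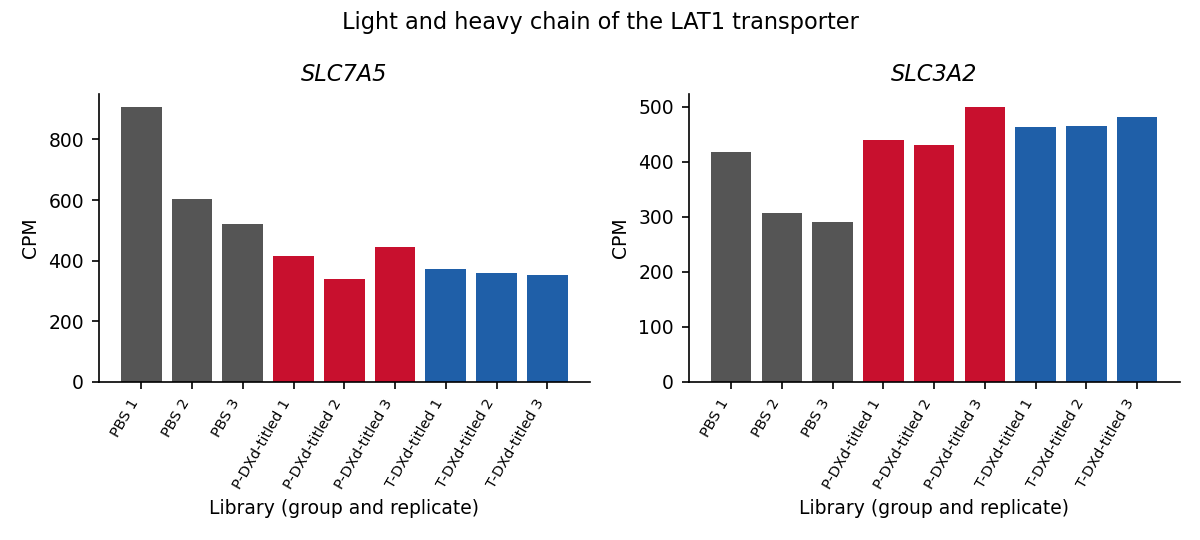
CPM of SLC7A5 (left) and SLC3A2 (right) in each of the 9 libraries, 1 bar per library, each axis starting at 0. SLC7A5 is highest in PBS replicate 1 (906 CPM) and lower in all treated libraries than in any PBS library, and SLC3A2 is higher in all treated libraries than in any PBS library.

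Of the tRNA synthetases, which charge tRNA with amino acids, 0 of 5 reached the fold minimum. AARS, for alanine, was at 172, 178 and 171 CPM with PBS and between 227 and 257 CPM in the treated libraries, at a log2 fold change of 0.45 ± 0.06 (adjusted p = 0.000169). SARS, for serine, was at 0.37 ± 0.08 (adjusted p = 0.00187), again above PBS in each treated library. GARS at 0.00 ± 0.06, WARS at 0.15 ± 0.16 and MARS at -0.05 ± 0.08 had adjusted p of 0.961, 0.436 and 0.598. WARS was at 125 CPM in PBS replicate 1 and at 72.1 and 74.2 CPM in the other PBS libraries. Its log2 fold change was 0.47 (adjusted p = 0.000227) without replicate 1, still under the fold minimum, and 0.01 and 0.03 without replicate 2 and replicate 3.

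The feedback regulators and other targets had the highest median log2 fold change of the 7 role groups, 1.03 over 5 genes, of which 3 rose. CHAC1, which degrades glutathione, was at 5.00, 6.91 and 7.04 CPM with PBS, 11.7, 11.5 and 13.9 CPM in P-DXd-titled and 14.7, 11.9 and 13.8 CPM in T-DXd-titled xenografts (a log2 change of 1.03 ± 0.14, adjusted p = 0.00019). SESN2, a leucine sensor that restrains mTORC1, was at 14.5, 24.96 and 30.4 CPM with PBS, 44.9, 45.9 and 48.6 CPM in P-DXd-titled and 48.3, 48.3 and 49.5 CPM in T-DXd-titled xenografts (1.03 ± 0.18, adjusted p = 0.000804). PPP1R15A, the GADD34 subunit that directs dephosphorylation of eIF2α, was at 60.1, 71.8 and 71.9 CPM with PBS, 125, 145 and 115 CPM in P-DXd-titled and 141, 123 and 128 CPM in T-DXd-titled xenografts (0.93 ± 0.10, adjusted p = 2.9e-05). In none of the 3 did the treated libraries overlap PBS.

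TRIB3, a pseudokinase that binds ATF4, was at 123, 282 and 305 CPM with PBS and 304 to 377 CPM in the treated libraries. Its lowest treated library lay below its highest PBS library, and its log2 fold change of 0.51 ± 0.23 did not pass (adjusted p = 0.0754). It was 0.21 without PBS replicate 1, and 0.74 and called (adjusted p = 0.0254) without PBS replicate 3. PBS replicate 1 was low for TRIB3, SESN2, NUPR1, DNAJB9 and ALDH1L2, at 0.421 to 0.57 times the mean of the other PBS libraries, and high for PSAT1, WARS, SDF2L1 and SLC7A5, at 1.61 to 2.44 times. PBS replicates 2 and 3 differed by over 1.5 times in 0 of the 43 genes. Without PBS replicate 1, 12 genes were called higher and 0 lower in all treated xenografts. These 2 counts are given without the share of all genes called in that fit.

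VLDLR, a lipoprotein receptor that ATF4 can induce, was at 0.636, 0.679 and 0.57 CPM with PBS, 0.286, 22.9 and 0.882 CPM in P-DXd-titled and 1.21, 0.7 and 0.609 CPM in T-DXd-titled xenografts. Only P-DXd-titled replicate 2 was high, and the groups overlapped. Its log2 fold change in P-DXd-titled xenografts was 3.68 ± 1.46 (adjusted p = 0.0873) and -0.10 without that library. The same library had a summed 4937 CPM of 12 skeletal muscle markers, compared with 124 to 325 CPM in the other treated and 18.9 to 76.9 CPM in the PBS libraries, and the part of muscle in the VLDLR level was not tested. Without this library the counts of called genes in all treated xenografts were again 11 and 1, given without the share of all genes called in that fit.

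**Figure D4:**
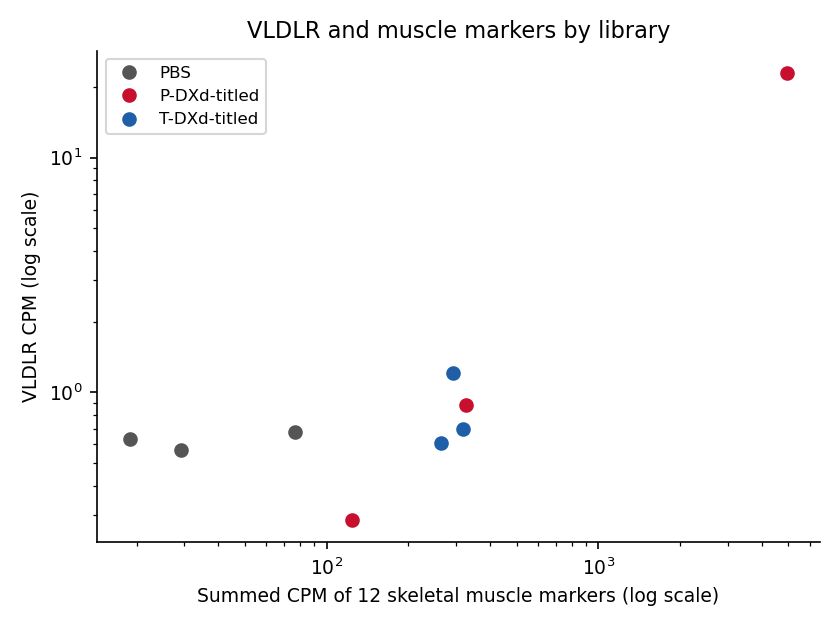
VLDLR CPM against the summed CPM of 12 skeletal muscle markers in each of the 9 libraries, both on log scales, coloured by group. P-DXd-titled replicate 2 stands alone at 22.9 and 4937 CPM.

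In the ER arm, XBP1 and DNAJB9 rose. XBP1 was at 134, 127 and 136 CPM with PBS, 211, 193 and 254 CPM in P-DXd-titled and 199, 209 and 226 CPM in T-DXd-titled xenografts, without overlap (log2 fold change 0.71 ± 0.09, adjusted p = 0.000112). The counts do not separate spliced from unspliced XBP1 mRNA. DNAJB9, the HSPA5 cochaperone ERdj4 and a target of spliced XBP1, was at 19.9, 31.0 and 38.9 CPM with PBS, 70.2, 47.3 and 66.5 CPM in P-DXd-titled and 59.5, 57.2 and 59.6 CPM in T-DXd-titled xenografts (1.00 ± 0.19, adjusted p = 0.00123). DNAJB9 overlaps PNPLA8 and THAP5 in the tables' coordinates.

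Of the sensors, ATF6 was at 84.7, 118 and 128 CPM with PBS and 151 to 172 CPM in the treated libraries, which did not overlap. It was called in P-DXd-titled xenografts at 0.60 ± 0.16 (adjusted p = 0.0279), and at 0.53 ± 0.12 (adjusted p = 0.00321) in all treated xenografts it was under the fold minimum. In P-DXd-titled xenografts it was no longer called without PBS replicate 1 or 2 or any of the 3 treated libraries. ERN1 was at 0.12 ± 0.12 (adjusted p = 0.438).

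Of the 11 chaperones and folding factors, DNAJB9 alone was called. HSPA5, the ER chaperone BiP and the usual readout of ER stress, was at 1217, 1307 and 1323 CPM with PBS, 1524, 1338 and 1549 CPM in P-DXd-titled and 1351, 1422 and 1446 CPM in T-DXd-titled xenografts. Each treated library was above each PBS library, and the log2 fold change of 0.17 ± 0.07 did not pass (adjusted p = 0.0798). HSP90B1, the chaperone GRP94, was at 1833, 1744 and 1662 CPM with PBS, 1520, 1414 and 1451 CPM in P-DXd-titled and 1359, 1394 and 1400.0 CPM in T-DXd-titled xenografts. It was below PBS in each treated library at -0.30 ± 0.07 (adjusted p = 0.00361), under the fold minimum. The disulfide isomerase PDIA4 at -0.34 ± 0.08, CRELD2 at -0.35 ± 0.10 and the secreted factor MANF at -0.27 ± 0.08 had adjusted p of 0.00345, 0.0145 and 0.0149, all under the fold minimum. PDIA6 at -0.21, SDF2L1 at -0.39, the lectin chaperones CALR at -0.10 and CANX at 0.03, and DNAJC3, an inhibitor of eIF2α kinases, at 0.04 did not pass, with adjusted p of 0.0517 to 0.797. Without PBS replicate 1, SDF2L1 was at -0.08, CRELD2 at -0.20 and MANF at -0.17, while SDF2L1 reached -0.52 without PBS replicate 2. PDIA6 was at -0.13 without PBS replicate 3.

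The degradation genes were split. SEL1L, a scaffold of the HRD1 ubiquitin ligase, was at 0.23 ± 0.08 (adjusted p = 0.0299) and HERPUD1, another component of that complex, at 0.25 ± 0.07 (adjusted p = 0.00956), both above PBS in each treated library. EDEM1, which routes misfolded glycoproteins to degradation, was at -0.49 ± 0.07 (adjusted p = 0.000317) and below PBS in each treated library. All 3 were under the fold minimum. ATF5, SHMT2, MTHFD2, ALDH1L2, WARS, HSP90B1, PDIA6, CRELD2 and CANX also overlap other listed genes, so that without knowledge of the strand their counts are less certain. In all treated xenografts 15 of the 43 genes, 8 higher and 7 lower, passed the adjusted p without reaching 1.5-fold. With the called genes, 27 of the 43 passed the adjusted p, beside 8398 of all 15070 genes tested.

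**Figure D5:**
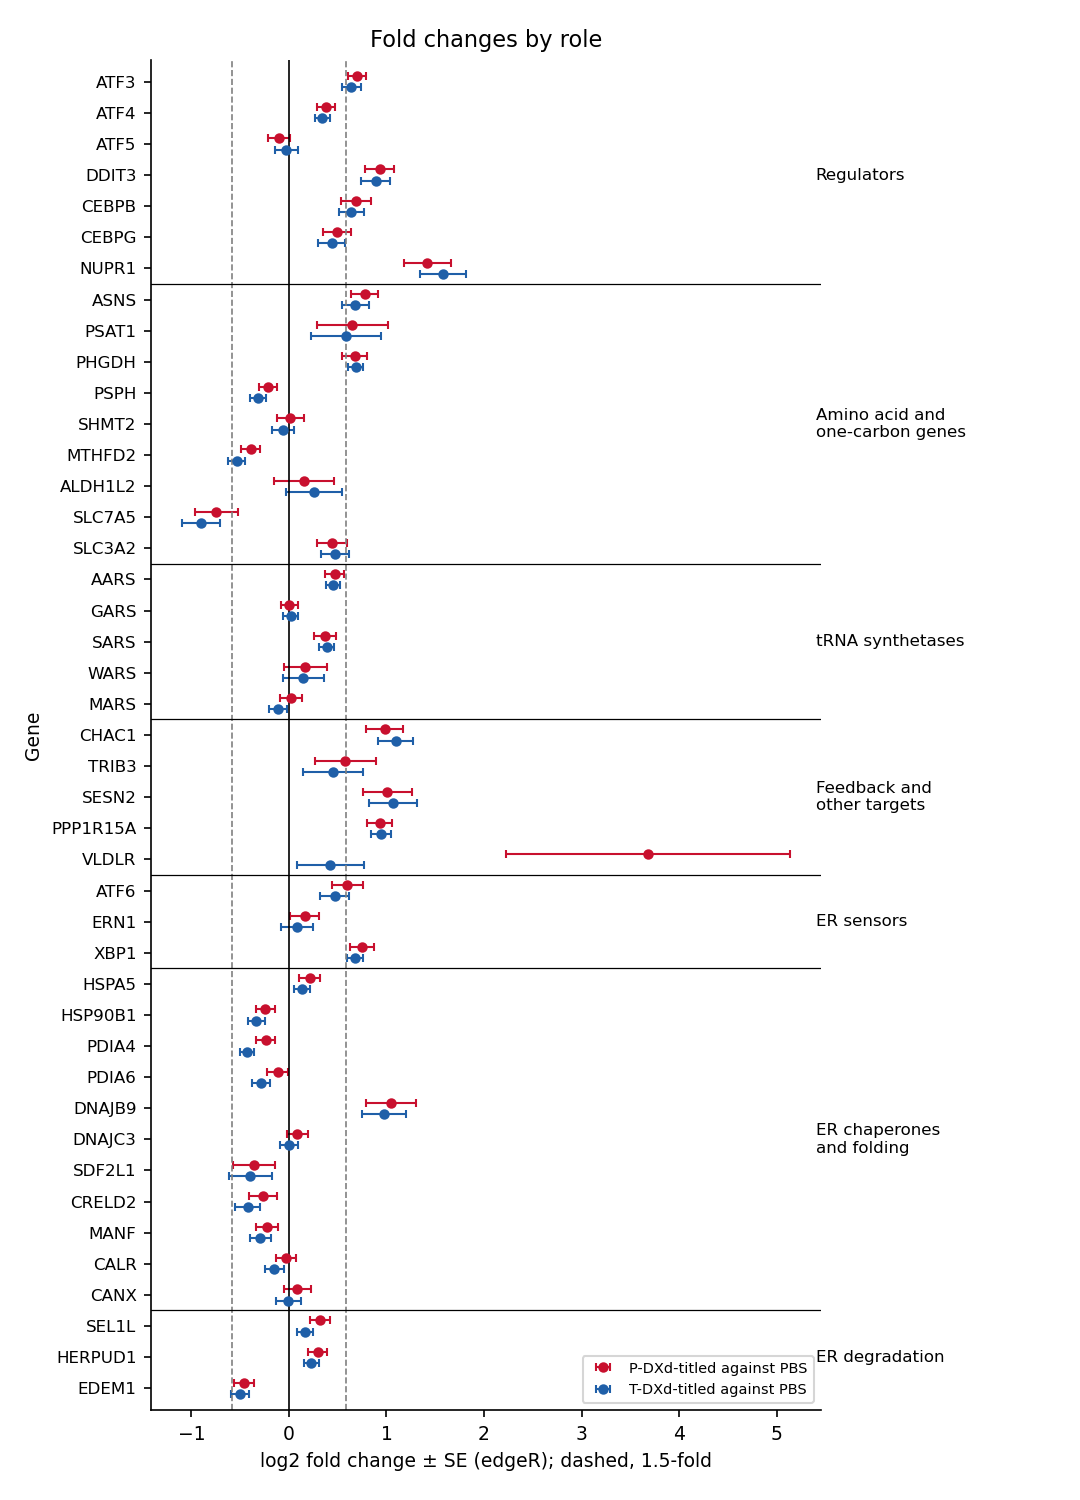
Log2 fold change with its SE of each of the 43 genes, by role, in P-DXd-titled (red) and T-DXd-titled (blue) xenografts compared with PBS (n = 3 per group), with dashed lines at 1.5-fold. Regulators and feedback genes lie mostly right of 0, chaperones other than DNAJB9 lie near or left of it, and the bar of VLDLR in P-DXd-titled xenografts is the widest.

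Read against the promoter sequences shown above, the genes with a CARE match had log2 fold changes of 0.66 for ATF3, 0.72 for ASNS, 0.45 for AARS and 1.03 for CHAC1, and SLC3A2 and MARS, whose matches are not shown, were at 0.45 and -0.05. The genes with an ERSE match were at 0.71 for XBP1, 0.17 for HSPA5, -0.30 for HSP90B1, -0.10 for CALR and 0.03 for CANX, and CRELD2, also not shown, was at -0.35. With an ERSE-II match, SDF2L1 was at -0.39 and HERPUD1, which holds a CARE match as well, at 0.25. Of the other genes called in all treated xenografts, NUPR1 had no promoter entry. No match of these elements was found for DDIT3 at 0.90, CEBPB at 0.65, PHGDH at 0.67 and SESN2 at 1.03. The same held for PPP1R15A at 0.93, DNAJB9 at 1.00 and SLC7A5 at -0.83. So genes with and without a match were called higher. These are values side by side, with no test of the elements.

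The conjugates share a payload and dose and differ in the antibody. In the direct comparison of the treated groups, 0 of the 43 genes were called by edgeR and 0 by DESeq2, where 0.0273% of all genes tested were called. At an unadjusted p under 0.05 there were 4 genes, VLDLR, PDIA4, PDIA6 and MTHFD2, each higher in P-DXd-titled xenografts, and each had an adjusted p of 1.00. Apart from VLDLR, log2 differences were -0.17 to 0.18, with SE of 0.06 to 0.18. They were above 0, that is higher in P-DXd-titled xenografts, for 17 of 17 ER arm genes, 11 of them chaperones and folding factors, and for 16 of 26 ATF4 arm genes including VLDLR, beside 7607 of all 14653 genes. For 7 of the 43 genes, PSPH, MTHFD2, ATF6, HSP90B1, PDIA4, PDIA6 and CRELD2, each P-DXd-titled library was above each T-DXd-titled library, where 8.14% of all genes did not overlap in either direction. No adjusted p passed, and the genes of an arm are not independent replicates. PDIA4 had the largest of these, at 0.18 ± 0.07, and NUPR1 the lowest, at -0.17 ± 0.08. These values do not show that the conjugates act alike.

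Other genes of the same pathways were counted from lists of their own. Of 33 further ATF4 targets tested, 8 were higher and 4 lower in all treated xenografts, beside 15.2% and 17.1% of all genes tested. GDF15, a stress cytokine, rose from 10.4, 27.6 and 24.5 CPM with PBS to 136 to 209 CPM, at a log2 fold change of 3.10 ± 0.29 (adjusted p = 1.62e-05). The AP-1 repressor JDP2 was at 1.70 and the amino acid exchanger SLC1A4 at 1.47. DDIT4, which restrains mTORC1 and also responds to hypoxia, fell from 81.4, 182 and 169 CPM to 29.3 to 50.6 CPM, at -1.97 ± 0.24 (adjusted p = 8.66e-05). The angiogenic factor VEGFA was at -1.54 and MTHFD1L, of mitochondrial one-carbon metabolism, at -0.76.

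Of 42 further unfolded protein response genes tested, 5 were higher and 1 lower, which for the higher genes is no more than the 15.2% of all genes. The transcription factor CREB3L1 was at a log2 fold change of 1.46, BLOC1S1, an IRE1 substrate, at 1.02 and WFS1, an ER membrane protein, at 0.85, while the ER oxidase ERO1L was at -0.64. Among 13 genes of eIF2 control 0 were higher and 1 was lower, EIF2B5 of the exchange factor eIF2B, at -0.71. Of 14 cytosolic heat shock genes 2 were higher, near the share of all genes, and 1 lower, with HSPA1A at 1.04 and HSPA1B at 0.72, near-identical copies whose reads counting could split, and CHORDC1 at -0.78. Of 12 mitochondrial unfolded protein response genes 0 were higher and 2 lower, the chaperones TRAP1 at -0.80 and HSPD1 at -0.71. Of all genes tested 17.1% were called lower, and the 2 of 12 are near that share. Without PBS replicate 1, MTHFD1L, EIF2B5, HSPD1 and CHORDC1 were under the fold minimum. EIF2B5, BLOC1S1, HSPA1A, TRAP1 and HSPD1 overlap other listed genes, so that without knowledge of the strand their counts are less certain.

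Several marker lists, but not all, moved with the treated groups too, where 15.2% of all genes tested were called higher and 17.1% lower. Of the 5 epithelial markers 2 were called higher, KRT8 at a log2 fold change of 1.31 and KRT18 at 0.69, and the list's median of 0.58 was above the ATF4 arm's 0.46. Of 7 macrophage markers tested 5 were higher, at a summed 15.1 to 26.8 CPM compared with 5.82 to 7.27 CPM with PBS. Of 14 fibroblast markers 6 were higher and 2 lower, with a median log2 fold change of 0.46. Their summed level was 2534 to 3765 CPM compared with 4123 to 4638 CPM with PBS, but FN1 alone, named after its values were seen, was at 445 to 627 CPM compared with 1843 to 2892 CPM. Without FN1 the sum was 1945 to 3233 CPM compared with 1746 to 2664 CPM, and the groups overlapped. Of 12 muscle markers 11 were higher. Among 6 endothelial markers tested 1 was called higher. Their summed levels overlapped, at 6.85 to 11.8 CPM in the treated and 5.35 to 11.1 CPM in the PBS libraries. Among 3 prostate luminal markers tested 1 was called higher. Host cells of these xenografts are from the mouse, and whether reads of these markers came from host or PC3 cells was not tested. The part of such cells, and of the lower proliferation markers, in the changes above was not tested either.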

How the data were processed

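Each library was an Illumina TruSeq mRNA library of a xenograft. Per the study's general RNA-Seq methods, Cutadapt trimming and STAR alignment preceded featureCounts, whose unnormalized counts per gene are the values the authors deposited. Removal of mouse reads and the strand used in counting are not given in the sources used here. The methods name GRCh38, whereas the tables' coordinates are on another, unnamed build, so these served only to find overlapping genes. Of the 43 genes, 12 overlap another listed gene.

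Counts were tested with edgeR 4.0.16 in R 4.3.3 (TMM, filterByExpr, two-sided quasi-likelihood F test, Benjamini-Hochberg adjustment over all genes tested). CPM (counts scaled to a common library size) was computed with TMM over 9 libraries. The 3 groups were compared pairwise, and 6 treated with 3 PBS libraries. Alternatives were DESeq2 1.42.0, RLE factors, other filters, no fold minimum, a block on the digit of the animal code, a joint fit and leaving out each library. The fitting code was tested on simulated data. A first pass mark for the share of changes recovered was narrowly missed with 3 against 3 libraries and was then replaced by marks for unbiased changes, signs and false calls. Among the genes tested, the misses were among those of higher dispersion, so a gene not called in a comparison of 3 against 3 may still have changed. All 43 genes were accounted for, and in other lists the called genes with the largest changes, up to 3 each way, were named. The genes and lists were chosen with earlier results of these data known.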

Additional observations from a re-analysis of the deposited data

Results flagged for a closer look

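Among the 6 treated libraries taken as a group, 3 of the 43 genes had a library far from the others by Dixon's test, whose ratio of gap to range passes its 95% limit by chance in about 1 of 20 groups. VLDLR was highest in P-DXd-titled replicate 2, with a ratio of 0.959. GARS had a ratio of 0.668, at 269 CPM in T-DXd-titled replicate 2 and 248 to 255 CPM elsewhere. MARS had a ratio of 0.667, at 253 CPM in P-DXd-titled replicate 3 and 203 to 220 CPM elsewhere.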

How the results depend on the processing

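In all treated xenografts compared with PBS, the count of genes called higher was 11 to 13 under each alternative except that 19 were higher and 8 lower with no fold minimum. These 27 of 43 stand beside 8398 of all 15070 genes tested that passed the adjusted p. Leaving out 1 library gave 11 to 13 higher and 0 to 1 lower, with 0 lower without PBS replicate 1. Counts with a library left out, and under the other alternatives, stand here without the share of all genes in the same fit. With no fold minimum, 3 were lower in P-DXd-titled xenografts, and 17 were higher and 8 lower in T-DXd-titled xenografts. At that setting 19 of 43 passed in P-DXd-titled xenografts, beside 5075 of all 14945 genes tested. In T-DXd-titled xenografts 25 of 43 passed, beside 6303 of 14915. The count of 1 lower in P-DXd-titled xenografts became 0 under the block on the animal code digit. Leaving out 1 library gave 6 to 12 higher and 0 to 1 lower in P-DXd-titled xenografts (6 without P-DXd-titled replicate 3), and 7 to 12 higher and 0 to 1 lower in T-DXd-titled xenografts (7 without T-DXd-titled replicate 1). Between the conjugates the count was 0 under each alternative.

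Genes near no change turned sign, given here as the range over leaving out 1 library in all treated xenografts: ERN1 -0.002 to 0.229, ATF5 -0.136 to 0.036, ALDH1L2 -0.043 to 0.406, MARS -0.114 to 0.018, SHMT2 -0.104 to 0.095, DNAJC3 -0.011 to 0.110, CANX -0.049 to 0.183 and GARS -0.019 to 0.030. ERN1, ATF5, ALDH1L2 and MARS turned sign without PBS replicate 1, SHMT2 without that library or P-DXd-titled replicate 1, DNAJC3 without PBS replicate 2, and CANX without PBS replicate 2 or 3. GARS was also at -0.001 with at least 10 counts in every library and -0.002 with the block. VLDLR in P-DXd-titled xenografts ranged from -0.097, without P-DXd-titled replicate 2, to 4.243. Called genes kept their direction under each alternative run. The cause of these changes was not tested, and counts carry no information on translation or splicing.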
